A study of Mus musculus with 8 samples.

Results

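The genes described here are 31 mouse genes of cholesterol and fatty acid synthesis, measured in single immune cells of the deep cervical lymph nodes. They were taken as a named list of enzymes and regulators, chosen with earlier results of these data known. All 31 were found, each once, among the 32285 genes of 5 expression tables. Of the 31, 7 act in the mevalonate steps, 10 in the squalene and sterol steps, 4 regulate the pathway, 1 transports sterol, 3 build fatty acids and 6 desaturate or elongate them. The nodes came from mice killed on day 20 after an injection into the brain, and live immune cells were sorted before droplet capture. In the B cell-depleted anti-CTLA-4 library the mice carried GL261 glioma, a mouse glioma cell line, and had received anti-CD20 and anti-CTLA-4. In the B cell-depleted isotype library the mice carried GL261, with anti-CD20 and isotype IgG. The anti-CTLA-4 library came from WT mice with GL261 that had received anti-CTLA-4, and the isotype library from WT mice with GL261 that had received isotype IgG. The saline control library came from mice labelled DPBS for both tumour cells and treatment, with no antibody named. Anti-CD20 removes B cells that display CD20, anti-CTLA-4 blocks an inhibitory receptor of T cells, and neither the number of mice per library nor their age is given in the sources used here. Each group is therefore 1 library: no difference was tested, ratios carry 95% intervals for counting error only, and variation between mice cannot be separated from the treatments.

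Cholesterol synthesis starts from acetyl-CoA, passes through mevalonate and the isoprenoids, and turns squalene into lanosterol and then cholesterol. When sterol in the endoplasmic reticulum runs low, SCAP carries the SREBP proteins, encoded by Srebf1 and Srebf2, to the Golgi, where they are cut and go on to switch on the synthesis genes, while INSIG1 holds SCAP back when sterol is plentiful. Fatty acid synthesis takes citrate through ACLY, acetyl-CoA carboxylase (Acaca) and fatty acid synthase (Fasn), after which desaturases and elongases set the length and saturation of the chains. Dividing lymphocytes are known to need both products for new membrane, and quiescent lymphocytes to make little of either.

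Because SREBP proteins act at the start sites of these genes, the bases just before the start site are shown for 4 members on which the results below turn: Hmgcs1, Idi1, Cyp51 and Insig1. The sequences are the 160 bases before the RefSeq start site on GRCm38.p6, 5′ to 3′ on the gene's strand, at chr13:119690191-119690350 (plus strand) for Hmgcs1, chr13:8885446-8885605 (plus) for Idi1, chr5:4104698-4104857 (minus) for Cyp51 and chr5:28071252-28071411 (plus) for Insig1. Capitals mark, on either strand, the sterol response element searched as TCACNCCAC, the E-box CACGTG, the NF-Y box CCAAT and the GC box GGGCGG.
Hmgcs1: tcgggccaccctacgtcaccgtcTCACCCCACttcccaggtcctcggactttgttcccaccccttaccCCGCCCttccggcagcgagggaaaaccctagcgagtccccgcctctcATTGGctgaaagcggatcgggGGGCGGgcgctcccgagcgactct
Idi1: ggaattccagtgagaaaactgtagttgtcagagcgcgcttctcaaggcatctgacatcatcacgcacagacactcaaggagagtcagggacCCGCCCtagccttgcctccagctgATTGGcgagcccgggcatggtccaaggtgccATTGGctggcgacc
Cyp51: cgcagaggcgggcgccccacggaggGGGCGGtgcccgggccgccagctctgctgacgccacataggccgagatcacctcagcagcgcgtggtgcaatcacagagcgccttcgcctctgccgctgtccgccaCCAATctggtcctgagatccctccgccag
Insig1: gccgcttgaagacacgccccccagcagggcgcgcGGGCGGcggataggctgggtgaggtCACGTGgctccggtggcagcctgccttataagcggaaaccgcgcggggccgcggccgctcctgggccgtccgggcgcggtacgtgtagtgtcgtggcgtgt
Hmgcs1 held 1 sterol response element, starting 137 bases before the start site, with a GC box 92 and another 24 bases before it and an NF-Y box 45 bases before it. Idi1 held a GC box 69 bases before the start and NF-Y boxes 45 and 14 bases before it. Cyp51 held a GC box 135 bases and an NF-Y box 29 bases before the start, and Insig1 a GC box 126 bases and an E-box 101 bases before it. Promoters were matched for 24 members, and Fdps, Fdft1, Sqle, Stard4, Scd1, Scd2 and Fads1 were not among them. Over 250 bases before the start on both strands, TCACNCCAC was found in 1 of the 24 (Hmgcs1), against 1.22% of 27025 genes. The E-box was found in 6 of the 24 against 6.86% of genes, the NF-Y box in 18 against 37.5%, and the GC box in 19 against 35.4%. These are matches of letters, and no binding was measured.

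The tables hold between 9014 and 11791 barcodes and between 54715065 and 63497466 UMIs, or counted RNA molecules, per library, and 45143 cells passed the filters. The isotype library stood apart before any comparison: its cells had a median mitochondrial share of 1.00%, against 1.77% to 2.09% in the other libraries. It also held 220 of the 224 cells of 1 follicular cluster and 133 of the 139 cells of 1 naive CD8 T cluster. Library pairs shared between 109 and 164 cell barcodes, at most 1.70% of the smaller library. Cells were clustered without the 31 genes and named from markers, so each name below stands for cells that look like that type. Follicular clusters were named from the level of follicular markers. Some were led by heat shock genes such as Hspa1a, and 1 was led by interferon-induced genes such as Ifit3. The anti-CTLA-4, isotype and saline control libraries held 3712, 3106 and 3058 follicular, 562, 484 and 623 activated and 182, 75 and 29 germinal centre B cells. After anti-CD20, 17 and 12 follicular, 1 and 1 activated and 38 and 24 germinal centre B cells were left in the anti-CTLA-4 and isotype libraries, so B cell comparisons use the libraries with at least 50 cells of each class. Levels are given as CPM, the UMIs of a gene divided by all UMIs of that class in that library and scaled to the same fixed total. In such sums, fewer cells making a transcript and less transcript per cell cannot be told apart. Clusters marked by long genes, with 353 B and 881 T cells, are outside the classes compared below. In the B ones all 31 genes summed to 1754, 1693 and 1712 CPM in the anti-CTLA-4, isotype and saline control libraries. These sums are above those given below for germinal centre, activated and follicular cells. Their mevalonate genes summed to 99.3, 120 and 78.4 CPM, against 99.2, 93.7 and 103 CPM in follicular cells.

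**Figure D1:**
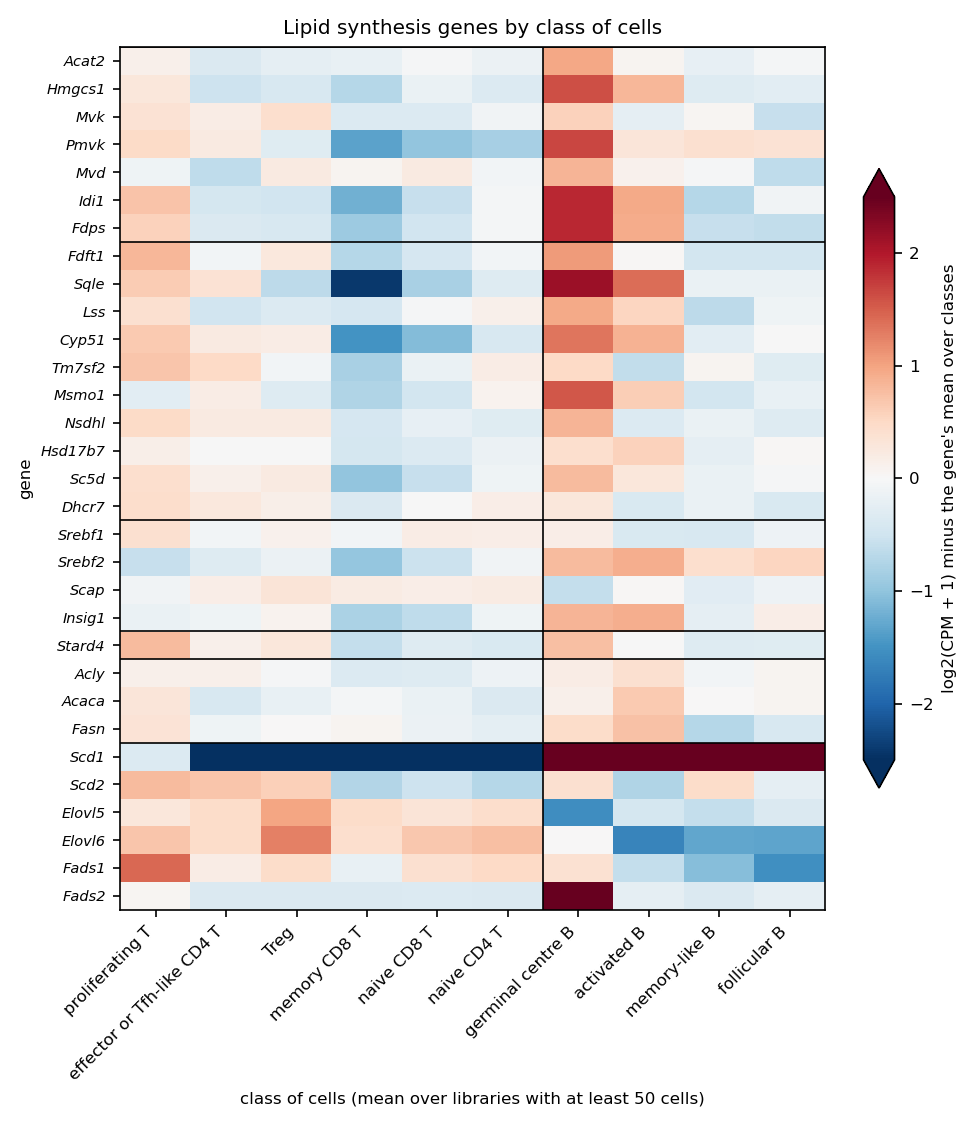
Level of each of the 31 genes (rows, grouped by role) in 10 classes of cells (columns), as log2(CPM + 1) averaged over the libraries with at least 50 cells, minus the gene's mean over the classes; colours past 2.5 in either direction are saturated. Most mevalonate and sterol genes were highest in germinal centre B cells, Scd1 was at or near 0 in most T classes, and Elovl5 and Elovl6 were higher in T than in follicular B cells.

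Germinal centre B cells, the dividing B cells that mutate and select their receptors, held more RNA of nearly every sterol synthesis enzyme than follicular B cells did, and less of Scd1 and Elovl5. In both libraries with enough cells, 13 of the 22 measured members were at least 1.5-fold higher and 2 were at least 1.5-fold lower. Over all genes, 20.2% were that much higher and 17.4% that much lower. The median log2 ratio was 0.83 for the members and 0.02 for all genes. A member counts as measured with at least 100 UMIs over both classes in each library. Of the 22, 21 reached this in follicular cells alone, while Sqle did so only together with germinal centre cells, and Acat2, Mvk, Mvd, Lss, Tm7sf2, Hsd17b7, Elovl6, Fads1 and Fads2 did not reach it. Summed over all 31 genes with no filter, the level was 1074 and 1264 CPM in germinal centre cells and 861 and 873 CPM in follicular cells of the anti-CTLA-4 and isotype libraries. Without Scd1 the sums were 987.5 and 1170 CPM against 576 and 565 CPM.

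Of the mevalonate enzymes, 4 of 7 were measured and all 4 were past 1.5-fold. Fdps, which makes farnesyl diphosphate, stood at 100 CPM in germinal centre and 22.1 CPM in follicular cells of the anti-CTLA-4 library (4.52-fold, 95% interval 3.82 to 5.35). In the isotype library Fdps stood at 160 and 22.1 CPM (7.24-fold, 6.05 to 8.65). Both germinal centre values lie far above the follicular ones, which are level between libraries. Hmgcs1, the enzyme that condenses acetyl groups to HMG-CoA, stood at 55.4 against 16.1 CPM in the anti-CTLA-4 library (3.44-fold, 2.77 to 4.26) and at 69.6 against 14.9 CPM in the isotype library (4.68-fold, 3.64 to 6.00). Idi1, the isopentenyl diphosphate isomerase, stood at 44.3 against 12.8 CPM (3.46-fold) and at 77.2 against 13.6 CPM (5.69-fold). Pmvk, which adds the second phosphate to mevalonate, was 2.17-fold and 2.79-fold higher. The smaller counts of Acat2, Mvk and Mvd pointed the same way, with ratios between 1.98 and 4.16, from 18 to 44 UMIs in germinal centre cells. Acat2 has a near copy in the mouse genome, Acat3, with which it may share reads.

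Of the squalene and sterol enzymes, 7 of 10 were measured and all 7 were past 1.5-fold. Sqle entered the 7 only together with the germinal centre cells in which it was high. Follicular cells held 74 and 77 of its UMIs in the anti-CTLA-4 and isotype libraries. Sqle, the squalene epoxidase, a slow step of the pathway, had the highest ratio of the measured members in the anti-CTLA-4 library and the next highest after Fdps in the isotype library. It stood at 29.8 CPM in germinal centre and 5.57 CPM in follicular cells of the anti-CTLA-4 library (5.34-fold, 3.85 to 7.43) and at 40.0 and 6.25 CPM in the isotype library (6.39-fold, 4.46 to 9.10). The enzymes on either side of squalene stood higher together in these cells: Fdft1, the squalene synthase, was 3.27-fold and 3.22-fold higher. Msmo1 and Cyp51, which remove methyl groups from lanosterol, were 3.92-fold and 3.34-fold, and 2.60-fold and 2.79-fold higher. Nsdhl, Sc5d and Dhcr7, which act further towards cholesterol, had ratios between 1.56 and 2.52. Lss and Tm7sf2 had ratios between 1.74 and 2.61, from 8 to 23 germinal centre UMIs, and Hsd17b7 was at 1.17 and 1.48 with intervals that include 1.

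The germinal centre cells left after anti-CD20, 38 with anti-CTLA-4 and 24 with isotype, and the 29 cells of the saline control were too few for a ratio here, but their levels can be set beside those above. Sqle stood at 40.6, 18.2 and 45.2 CPM in the depleted anti-CTLA-4, depleted isotype and saline control libraries, from 17, 6 and 18 UMIs. All lie above the 5.57 to 6.76 CPM of follicular cells, although the interval of the depleted isotype value, 6.69 to 39.7 CPM, reaches down to the top of that range.

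The regulators did not share one direction. Srebf2, the SREBP that drives sterol genes, stood at 117 against 105 CPM (1.12-fold, 0.984 to 1.26) and at 125 against 98.3 CPM (1.27-fold, 1.08 to 1.49). Srebf1, which drives fatty acid genes, was at 1.14 and 1.41, with both intervals reaching 1, and Scap at 0.602 and 0.747. Insig1, itself a known target of SREBP, was 1.75-fold higher in the anti-CTLA-4 library (51.0 against 29.2 CPM) and 1.49-fold higher in the isotype library (44.8 against 30.04 CPM), just short of 1.5-fold. Stard4, which carries cholesterol through the cytosol, stood at 26.4 against 10.6 CPM and at 26.2 against 11.04 CPM, 2.49-fold and 2.37-fold higher.

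The fatty acid genes were split. Fasn, the fatty acid synthase, stood at 27.5 against 17.2 CPM (1.60-fold) and at 41.3 against 19.8 CPM (2.09-fold), while Acly was at 0.979-fold and 1.27-fold and Acaca at 0.877-fold and 1.03-fold. Scd1, the stearoyl-CoA desaturase that makes oleate, ran the other way from the sterol enzymes. It stood at 86.7 CPM in germinal centre and 285 CPM in follicular cells of the anti-CTLA-4 library (0.304-fold, 0.265 to 0.347) and at 93.7 and 308 CPM in the isotype library (0.304-fold, 0.255 to 0.361). Elovl5, an elongase of polyunsaturated chains, stood at 26.0 against 61.3 CPM (0.425-fold) and at 26.9 against 60.3 CPM (0.445-fold). The libraries disagreed on Scd2, a second stearoyl-CoA desaturase: 14.9 against 18.4 CPM in the anti-CTLA-4 library (0.810-fold, 0.565 to 1.14), but 40.0 against 17.1 CPM in the isotype library (2.33-fold, 1.71 to 3.13). Of the 58 Scd2 UMIs in isotype germinal centre cells, 1 cell held 22.4%. Fads2, the delta-6 desaturase, was seldom counted in B cells: 26 UMIs in 182 germinal centre cells against 2 in 3712 follicular cells with anti-CTLA-4 (ratio 64.2, interval 16.1 to 558) and 5 in 75 against 1 in 3106 with isotype. The plasma cells of those libraries held 5 Fads2 UMIs in 24 cells and 24 in 43 cells.

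**Figure D2:**
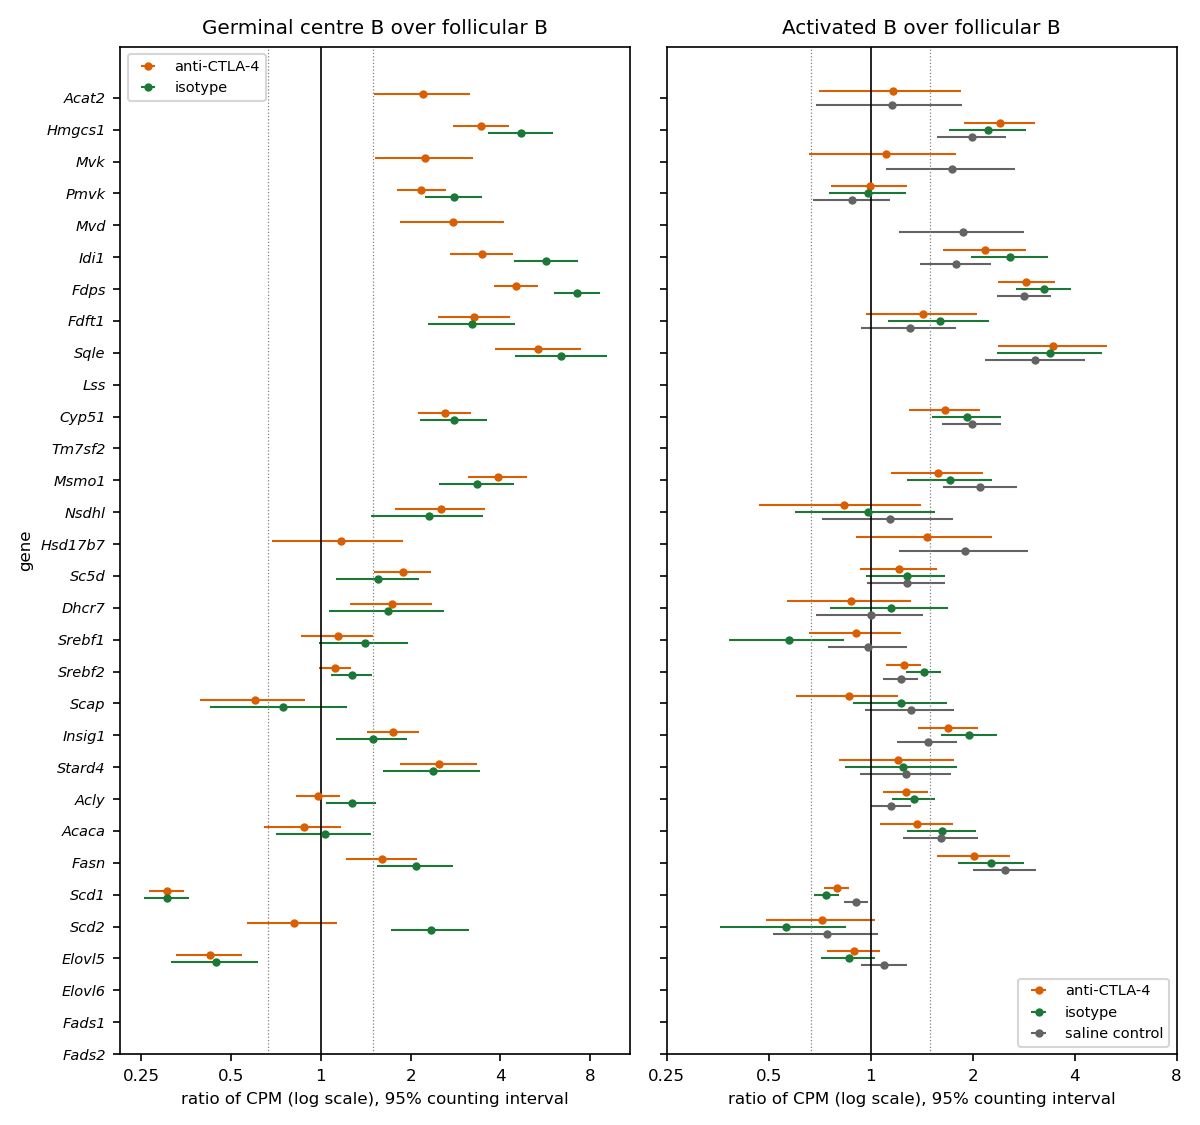
Ratio of CPM in germinal centre B (left) and activated B cells (right) to follicular B cells for each gene with at least 100 UMIs over both classes, on a log scale, with 95% counting intervals, by library (colours); the solid line is a ratio of 1 and dotted lines are 1.5-fold. Sterol enzymes lie to the right in germinal centre cells, with Sqle at 5.34 and 6.39, and Scd1 and Elovl5 to the left.

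Other genes of sterol and fatty acid handling, in lists chosen beside the 31, did not share one direction. Among the further sterol genes, Ggps1, the geranylgeranyl diphosphate synthase, was 0.550-fold and 0.658-fold. Of 14 genes of sterol efflux, storage and oxysterol sensing, 10 were measured, 7 were lower and 1 was higher, with a median log2 ratio of -1.50. Throughout, the genes given as highest or lowest are ranked by the interval bound nearest to 1, so that thinly counted genes come late. Lowest were Gpr183, the oxysterol receptor that places B cells outside follicle centres (26.0 against 202 CPM and 28.9 against 187 CPM), Abca1, a cholesterol exporter (14.9 against 93.4 CPM and 4.13 against 89.6 CPM), and Mylip, a ubiquitin ligase induced by oxysterols (36.1 against 160 CPM and 28.9 against 136 CPM). Apoe, a carrier of exported cholesterol, was the member that was higher (414 against 212 CPM and 350 against 214 CPM). Of 10 other fatty acid genes, 6 were measured, with 2 higher (Slc25a1 and Acsl5) and 1 lower (Acss2). Of 12 oxidation genes, 11 were measured and 3 were higher (Hadha, Etfa and Etfb), with none lower. The shares of all genes higher and lower, given above for this comparison, stand beside these counts of fatty acid and oxidation genes. No result is read from those counts.

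Germinal centre cells also differed from follicular cells in depth and in the cell cycle, and these values stand beside every ratio above. They had a median of 12984 and 17810 UMIs per cell, against 3370 and 3748 in follicular cells of the anti-CTLA-4 and isotype libraries. All 18 cell cycle genes were past 1.5-fold, with a summed level of 5543 and 5168 CPM against 273 and 256 CPM. Summed early stress genes went the other way, at 1728 and 1881 CPM against 5958 and 8436 CPM. Summed Cd3d, Cd3e and Cd3g, the T cell markers, stood at 43.9 and 17.2 CPM in germinal centre cells, against 13.2 and 4.22 CPM in follicular cells and 1732 to 3138 CPM in T classes.

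At a finer clustering, germinal centre cells formed a cycling cluster, with Mki67 at 850 and 750 CPM, and a second cluster with Mki67 at 101 and 146 CPM, in the anti-CTLA-4 and isotype libraries. The cycling cluster held 92 and 45 cells and the other 90 and 31, so they do not exactly divide the 75 isotype cells of the class. Over the 11 and 7 members with at least 100 UMIs in these cells, the median log2 ratio of the cycling cluster over the other was 0.37 and 0.62, against 0.01 and 0.03 for all genes. Idi1 stood at 53.5 against 23.9 CPM (2.23-fold, 1.37 to 3.82) and at 93.4 against 31.8 CPM (2.94-fold, 1.61 to 5.87). Hmgcs1 stood at 63.7 against 37.1 CPM (1.72-fold) and at 81.4 against 34.4 CPM (2.36-fold), and Fdps at 1.80-fold and 1.53-fold. Pmvk was at 0.894-fold and 0.851-fold and Scd1 at 0.970-fold and 0.979-fold, with intervals that include 1. Sqle was at 0.937-fold and 1.34-fold, from 54 and 46 UMIs in the cycling cluster and 26 and 12 in the other, too few to place it. The less cycling cluster also stood above follicular cells for Fdps, at 64.6 and 113.9 CPM against 22.1 and 22.1 CPM, for Hmgcs1, at 37.1 and 34.4 CPM against 16.1 and 14.9 CPM, and for Idi1, at 23.9 and 31.8 CPM against 12.8 and 13.6 CPM.

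Activated B cells, named from genes switched on after receptor signals, also held raised synthesis genes, but the higher levels sat mostly in 1 of the 2 clusters of this class. Over the anti-CTLA-4, isotype and saline control libraries, 7 of 22 measured members were at least 1.5-fold higher than in follicular cells in every library and none was 1.5-fold lower. Over all genes, 7.82% were that much higher and 8.37% that much lower. The median log2 ratio was 0.35 for members and -0.11 for all genes. The measured members were the same 22, of which 20 reached 100 UMIs in follicular cells alone and Sqle and Nsdhl did so only with activated cells. The 7 were Fdps, Idi1, Hmgcs1, Sqle, Cyp51, Msmo1 and Fasn. Summed over all 31 genes, the level was 1009, 1063 and 1071 CPM in activated cells and 861, 873 and 846 CPM in follicular cells. Without Scd1 the sums were 783, 835 and 840 CPM against 576, 565 and 590 CPM.

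The cluster led by Srm, Mettl1 and C1qbp, which encode a polyamine enzyme, an RNA methyltransferase and a mitochondrial protein, held 325, 310 and 352 cells of the 3 libraries. The cluster led by Nr4a3, Egr1 and Egr2, early genes of receptor signalling, held 237, 174 and 271. Fdps stood at 87.1, 91.1 and 76.5 CPM in the Srm-led cluster, at 16.0, 16.8 and 40.4 CPM in the Nr4a3-led cluster and at 22.1, 22.1 and 22.6 CPM in follicular cells. The Srm-led values are thus above both others in each library, and the Nr4a3-led values lie around the follicular level except in the saline control. Idi1 stood at 36.5, 40.8 and 40.9 CPM, against 10.3, 18.2 and 15.6 CPM in the Nr4a3-led cluster and 12.8, 13.6 and 18.0 CPM in follicular cells. Fasn stood at 40.4, 53.4 and 59.4 CPM, against 22.9, 21.1 and 22.1 CPM and 17.2, 19.8 and 18.7 CPM. Hmgcs1 was closer between the clusters: 43.2, 38.3 and 38.5 CPM in the Srm-led one and 29.8, 18.2 and 30.3 CPM in the Nr4a3-led one, against 16.1, 14.9 and 17.9 CPM in follicular cells. The median log2 ratio of the measured members over follicular cells was 0.42, 0.56 and 0.53 in the Srm-led cluster, against -0.14, -0.13 and -0.11 for all genes. In the Nr4a3-led cluster it was -0.03, -0.08 and 0.02, against -0.14, -0.14 and -0.13. Myc, which drives growth, was higher in the Nr4a3-led cluster (1008, 1196 and 821 CPM) than in the Srm-led one (379, 474 and 573 CPM).

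A further cluster led by Egr1 and Ccl4 had 3 activation markers and no follicular one among its leading genes and was left unnamed. It held 167, 565 and 270 cells, with Fdps at 22.8, 30.3 and 21.99 CPM and Scd1 at 374, 329 and 250 CPM, against 22.1, 22.1 and 22.6 CPM of Fdps and 285, 308 and 256 CPM of Scd1 in follicular cells. Its median log2 ratio over follicular cells was -0.12, 0.04 and -0.10, against -0.08, -0.09 and -0.07 for all genes. The count of 7 depended on which cells the class held. Without doublet removal, with a stricter cell filter, with the 31 genes kept for clustering, or with the Srm-led cluster left out, none of the members was 1.5-fold higher in all 3 libraries, and Fdps lay below the follicular level in the anti-CTLA-4 and isotype libraries.

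**Figure D3:**
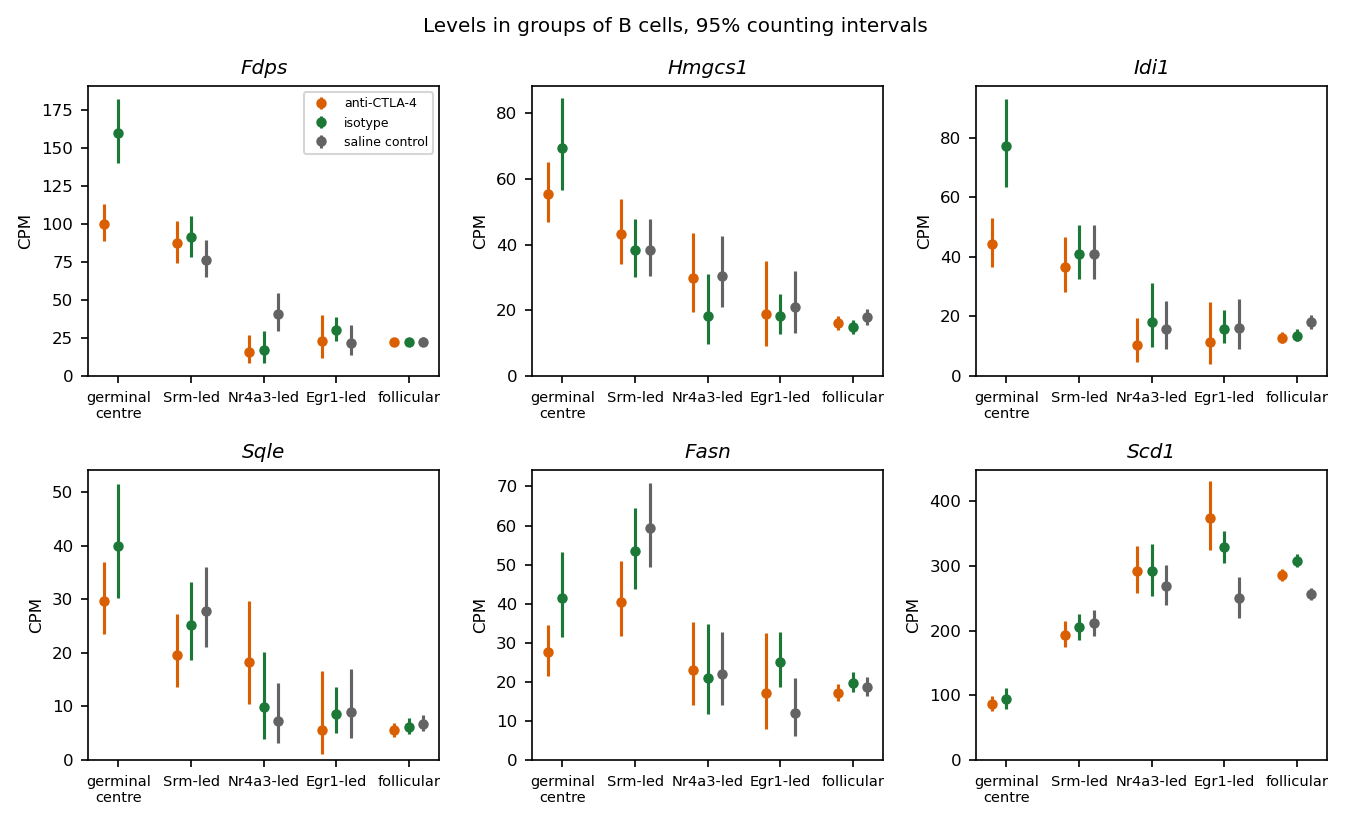
CPM of 6 genes in germinal centre B cells, the Srm-led and Nr4a3-led activated clusters, an unnamed Egr1-led cluster and follicular B cells, by library (colours), with 95% counting intervals; each axis starts at 0. Fdps, Idi1 and Fasn are raised in the germinal centre and Srm-led cells. In the Nr4a3-led cells they lie near the follicular level, except Fdps in the saline control, which is higher. Scd1 is lowest in the germinal centre.

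By role, the activated class as a whole showed 3 of 4 measured mevalonate genes past 1.5-fold, 3 of 7 squalene and sterol genes, none of 4 regulators and 1 of 3 fatty acid genes. Among these, Sqle entered only together with the activated cells in which it was high. Sqle stood at 19.2, 21.1 and 20.7 CPM against 5.57, 6.25 and 6.76 CPM (3.45-fold, 3.38-fold and 3.06-fold), and Hmgcs1 was 2.41-fold, 2.22-fold and 1.99-fold higher. Pmvk, higher in germinal centre cells, was level here at 0.993-fold, 0.984-fold and 0.883-fold. Srebf2 stood at 132, 141 and 124 CPM against 105, 98.3 and 101 CPM and Insig1 at 49.4, 58.5 and 43.3 CPM against 29.2, 30.04 and 29.4 CPM, both above follicular cells with intervals clear of 1. Srebf1 was level in the anti-CTLA-4 and saline control libraries (19.2 against 21.2 CPM and 22.6 against 23.0 CPM) and lower in the isotype library (11.5 against 20.1 CPM, 0.573-fold, 0.381 to 0.834). Stard4 stood at 12.8, 13.7 and 18.5 CPM against 10.6, 11.04 and 14.5 CPM, with intervals that include 1. Acly, which releases acetyl-CoA from citrate, stood at 81.4, 89.3 and 86.6 CPM against 64.2, 66.7 and 75.5 CPM. Lowest were Scd1 (226, 228 and 231 CPM against 285, 308 and 256 CPM), Scd2 (13.2, 9.63 and 12.4 CPM against 18.4, 17.1 and 16.7 CPM) and Elovl5 (54.7, 51.9 and 68.5 CPM against 61.3, 60.3 and 62.4 CPM), none of them past 1.5-fold in every library. Beside the 31, Abca1, Abcg1 and Mylip were lower in all 3 libraries. Summed cell cycle genes stood at 434, 561 and 366 CPM in activated cells, against 273, 256 and 258 CPM in follicular cells; their part in the result was not tested.

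Fcrl5-led memory-like or innate-like B cells held less Scd1 than follicular cells. In 425, 256 and 327 cells of the anti-CTLA-4, isotype and saline control libraries, Scd1 stood at 182, 193 and 182 CPM, against 285, 308 and 256 CPM in follicular cells. The 6 desaturase and elongase genes together stood at 271, 268 and 271 CPM, against 367, 389 and 338 CPM. Scd1 made up most of each of these sums. Elovl5 was lower, at 53.3, 50.7 and 52.7 CPM, against 61.3, 60.3 and 62.4 CPM. Scd2 ran the other way, at 33.1, 20.4 and 32.3 CPM, against 18.4, 17.1 and 16.7 CPM. Sqle stood at 6.84, 6.80 and 5.10 CPM, against 5.57, 6.25 and 6.76 CPM, from 12 to 19 UMIs in the memory-like cells, and Hmgcs1 at 15.5, 14.1 and 17.4 CPM, against 16.1, 14.9 and 17.9 CPM.

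The receptor libraries gave a split of B cells that uses no expression value. Cells whose heavy chain was IgG numbered 90 in the anti-CTLA-4 and 52 in the isotype library, against 4475 and 3881 cells with IgM or IgD. Of 26 measured members, all of which reached 100 UMIs on the IgM or IgD side alone, 7 were at least 1.5-fold higher in IgG cells of both libraries and 3 were lower. Over all genes, 8.40% were that much higher and 26.1% that much lower. Highest were Fdps (86.5 against 32.2 CPM and 121 against 36.2 CPM), Sqle (26.7 against 8.9985 CPM and 22.2 against 10.3 CPM) and Fdft1 (26.1 against 12.9 CPM and 24.8 against 12.3 CPM). Lowest were Scd1 (65.3 against 256 CPM and 28.9 against 276 CPM), Elovl5 (27.4 against 58.3 CPM and 16.1 against 59.1 CPM) and Acaca (14.9 against 24.7 CPM and 11.4 against 26.3 CPM). The IgG cells were mostly of 2 kinds: 70 and 18 germinal centre cells and 17 and 26 plasma cells, so this split largely repeats the classes. The median log2 ratio was 0.32 for members, against -0.37 for all genes, and 1.07 for members once plasma cells were left out. In the saline control 15 cells had IgG, too few for this comparison.

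Naive CD4 T cells and follicular B cells, both resting, held similar levels of most of the pathway, with a median log2 ratio of -0.01 over 26 measured members and -0.10 over all genes. Of the 26, 20 reached 100 UMIs in follicular cells alone, Elovl6, Mvk, Mvd, Sqle, Acat2 and Nsdhl did so only together with T cells, and Lss, Tm7sf2, Hsd17b7, Fads1 and Fads2 were not measured. In all 3 libraries with B cells 3 members were at least 1.5-fold higher in naive CD4 T cells and 3 were lower, against 11.9% and 17.6% of all genes. The clearest difference between the lineages lay in the desaturases and elongases. Scd1 stood at 0.964, 0.417 and 0.632 CPM in naive CD4 T cells, from 8, 3 and 5 UMIs, and at 285, 308 and 256 CPM in follicular cells of the anti-CTLA-4, isotype and saline control libraries. In the depleted anti-CTLA-4 and depleted isotype libraries the naive CD4 T values were 0 and 0.0601 CPM. The summed B cell markers Cd79a, Cd79b and Ms4a1 moved the same way in these T cells, at 2.01 and 2.29 CPM in the depleted libraries and 15.3, 10.4 and 13.8 CPM in the others, against 5982 to 6326 CPM in follicular cells. Elovl6, which lengthens saturated chains, stood at 13.5, 10.985 and 13.6 CPM against 1.96, 2.84 and 2.12 CPM (6.89-fold, 3.87-fold and 6.44-fold), from 26, 35 and 26 UMIs in follicular cells. Elovl5 stood at 106, 100 and 122 CPM against 61.3, 60.3 and 62.4 CPM, and Fdps at 33.7, 35.3 and 33.9 CPM against 22.1, 22.1 and 22.6 CPM. Pmvk (0.442-fold, 0.441-fold and 0.374-fold) and Srebf2 (67.9, 63.5 and 66.2 CPM against 105, 98.3 and 101 CPM) were lower in T cells. Fads1, the delta-5 desaturase, had too few UMIs for the rule, at 4.82, 3.20 and 5.94 CPM against 0.151, 0.325 and 0.244 CPM.

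**Figure D4:**
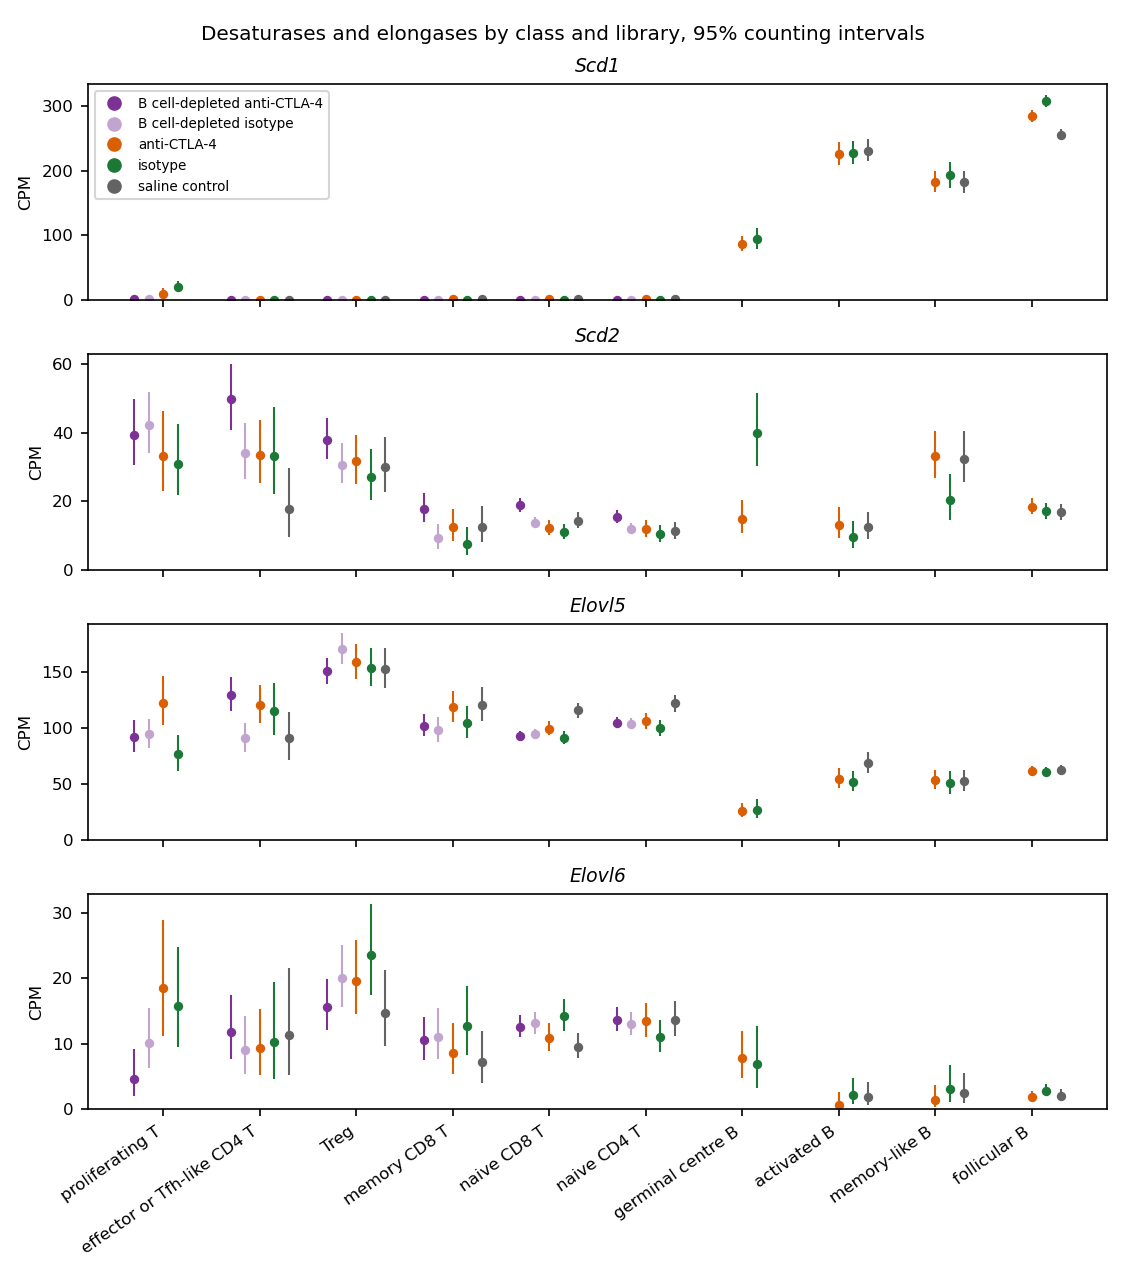
CPM of Scd1, Scd2, Elovl5 and Elovl6 (panels) in 10 classes of cells, by library (colours), with 95% counting intervals, for classes with at least 50 cells; each axis starts at 0. Scd1 is high in B classes and low in T classes, with up to 20.0 CPM in proliferating T cells, Elovl5 is highest in Treg, and Scd2 is higher in Treg, proliferating and effector or Tfh-like CD4 T cells than in naive T cells.

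Among T cells, levels were compared with naive CD4 T cells within each of the 5 libraries. Regulatory T cells, or Treg, which restrain responses and depend on Foxp3, had 1 of 19 measured members at least 1.5-fold higher in every library and none lower, against 9.11% and 3.16% of all genes. That member was Scd2, at 37.9, 30.6, 31.6, 27.0 and 29.8 CPM in Treg and 15.4, 11.9, 11.8, 10.3 and 11.2 CPM in naive CD4 T cells, in the order depleted anti-CTLA-4, depleted isotype, anti-CTLA-4, isotype and saline control. All 5 ratios lay between 2.46 and 2.67. Elovl5 followed at 151, 171, 159, 154 and 153 CPM against 105, 104, 106, 100 and 122 CPM, with ratios of 1.26 to 1.64, and Acly was at 0.976 to 1.17. The lowest were Fdps (0.668 to 1.00), Msmo1 (0.501 to 0.923) and Srebf2 (0.890 to 1.05). The other 12 members had under 100 UMIs in at least 1 library, and 13 of the 19 reached it in naive cells alone. Scd2 is not among the 13: naive CD4 T cells of the anti-CTLA-4, isotype and saline control libraries held 98, 74 and 89 of its UMIs, so it entered only together with the Treg in which it was high. The median log2 ratio of the 19 was 0.17, against 0.14 for all genes.

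Effector or Tfh-like CD4 T cells, led by Penk and Tox2, had 2 of 18 measured members higher, Scd2 and Pmvk, and none lower, against 8.36% and 3.02% of all genes; 13 of the 18 reached 100 UMIs in naive cells alone. Scd2 and Pmvk are not among the 13, with 74 and 86 UMIs in naive CD4 T cells of the isotype library, and entered only together with the cells in which they were high. Scd2 stood at 49.8, 34.0, 33.5, 33.1 and 17.7 CPM in these cells, with ratios of 1.57 to 3.23 over naive CD4 T cells. Pmvk had ratios of 1.66 to 2.95. Scd2 was lowest in the saline control, where 137 such cells gave an interval of 0.827 to 2.78 for the ratio. Next highest was Acly (1.10 to 1.29), and the lowest were Fdps (0.672 to 0.882), Elovl5 (0.745 to 1.24) and Srebf1 (0.777 to 0.980).

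Naive CD8 T cells were the closest to naive CD4 T cells, with none of 23 measured members past 1.5-fold in either direction in every library, against 2.68% of all genes higher and 2.31% lower. Within that range the ratios leaned low, with a median log2 of -0.18 against -0.06 for all genes. Srebf2 stood at 48.9, 45.1, 49.2, 48.0 and 46.9 CPM, against 70.0, 61.6, 67.9, 63.5 and 66.2 CPM in naive CD4 T cells, and every interval lay below 1. Fdps (0.656 to 0.801) and Msmo1 (0.585 to 0.736) were lower in each library too. Highest were Mvd (1.13 to 1.42), Acaca (1.06 to 1.23) and Hmgcs1 (1.03 to 1.26).

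Memory CD8 T cells, led by Gzmm and Ly6c2, held less of most sterol genes than naive CD4 T cells did, with a smaller gap to naive CD8 T cells. Summed over all 31 genes they stood at 474, 444, 469, 448 and 486 CPM, against 524, 500, 524, 492 and 557 CPM in naive CD8 T cells. None of 17 measured members was higher and 6 were lower in every library, in relation to naive CD4 T cells, against 3.03% and 4.75% of all genes, with a median log2 ratio of -0.58 against -0.16. The 6 were Srebf2, Fdps, Idi1, Sc5d, Msmo1 and Cyp51. Srebf2 stood at 36.2, 37.4, 35.007, 33.1 and 35.4 CPM, with ratios of 0.515 to 0.608, Fdps at 20.6, 16.8, 18.1, 15.8 and 18.4 CPM (0.447 to 0.605), and Sc5d had ratios of 0.459 to 0.640. The 5 libraries thus gave nearly the same level of Srebf2. Naive CD8 T cells lay between naive CD4 and memory CD8 T cells for all 6. Averaged over libraries, naive CD8 T cells stood at 47.6, 24.6, 10.3, 14.1, 11.7 and 9.79 CPM for the 6 in that order. Those averages compare with 35.4, 17.9, 6.32, 10.4, 9.37 and 7.17 CPM in memory CD8 T cells. Sqle, not measured by the UMI rule, stood at 0.734, 0.635, 1.24, 0 and 0 CPM in these cells, from at most 3 UMIs, against 6.41, 4.21, 4.94, 5.98 and 6.07 CPM in naive CD4 T cells. The fatty acid genes were mixed: Fasn was at 1.09 to 1.505 and Elovl5 at 0.942 to 1.12, Acly was below 1 in all 5 libraries at 0.833 to 0.908, and Elovl6 was at 0.532 to 1.16. Fads1, not measured by the UMI rule, was at 0.408 to 0.637. Memory CD8 T cells were deeper than naive CD4 T cells, with medians of 8281 to 9671 UMIs against 4583 to 5413.

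Proliferating T cells reached 50 cells in 4 libraries, and 4 of 18 measured members, Scd2, Fdft1, Cyp51 and Pmvk, were at least 1.5-fold above naive CD4 T cells in all 4 with none lower. These 4 and Hmgcs1 reached 100 UMIs in the isotype library only together with the proliferating cells, with 74, 92, 91 and 86 UMIs of the 4 in its naive CD4 T cells. Over all genes, 16.8% were that much higher and 8.72% lower. Fdft1 stood at 27.5, 28.2, 33.2 and 27.5 CPM (1.73-fold to 2.24-fold) and Scd2 at 39.3, 42.1, 33.2 and 30.9 CPM (2.55-fold to 3.54-fold). In the isotype library 1 cell held 36.4% of the 33 Fdft1 UMIs, and 1 cell held 24.6% of the 57 Cyp51 UMIs. Cyp51 stood lower in the depleted libraries, at 25.8 and 23.6 CPM, than in the others, at 43.0 and 47.5 CPM. By the interval bound the lowest were Srebf2 (0.620 to 0.774), Elovl5 (0.766 to 1.16) and Acly, although Acly was above 1 in all 4 libraries (1.03 to 1.31). Msmo1 was below 1 in all 4 (0.628 to 0.992), with intervals that include 1. The summed B cell markers in this class stood at 12.3 and 30.1 CPM in the depleted libraries, and at 153 and 197 CPM in the others, where Scd1 stood at 9.76 and 20.0 CPM. The part of cells of the B lineage in this result was not tested.

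Glioma nodes were set against saline nodes through the isotype and saline control libraries, which also differ in isotype IgG. In follicular B cells none of 26 measured members passed 1.5-fold, against 2.45% of all genes, and the median log2 ratio was -0.04 against -0.02. Highest were Scd1 (308 against 256 CPM, 1.20-fold), Acaca (1.31-fold) and Sc5d (1.10-fold), and lowest Idi1 (13.6 against 18.0 CPM, 0.753-fold), Stard4 (11.04 against 14.5 CPM, 0.761-fold) and Acly (66.7 against 75.5 CPM, 0.884-fold). In activated B cells 1 of 18 passed, against 3.78%: Srebf1 at 11.5 against 22.6 CPM (0.508-fold, 0.322 to 0.785). Insig1 was highest there at 1.35-fold, with Srebf2 at 1.14-fold and Acaca at 1.32-fold, and Elovl5 (0.758-fold) and Cyp51 (0.834-fold) were low.

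In naive T cells of the same pair of libraries the members leaned low. Naive CD4 T cells had 2 of 23 members past 1.5-fold, both lower in the isotype library, against 1.90% of all genes, and a median log2 ratio of -0.22 against -0.05. Cyp51 stood at 12.7 against 21.0 CPM (0.603-fold, 0.462 to 0.783) and Insig1 at 20.6 against 31.2 CPM (0.659-fold, 0.534 to 0.811). Naive CD8 T cells had 2 of 24, against 1.71%, with a median of -0.18 against -0.04. Insig1 stood at 12.5 against 20.5 CPM (0.612-fold, 0.484 to 0.770) and Acat2 at 4.95 against 9.40 CPM (0.526-fold, 0.363 to 0.753). Elovl5 was also lower in both, at 100 against 122 CPM and 91.4 against 116 CPM, within 1.5-fold. Pmvk (1.21-fold), Srebf1 (1.08-fold) and Fdps (1.04-fold) were highest in naive CD4 T cells, and Elovl6 (1.48-fold), Srebf1 (1.21-fold) and Fdft1 (1.21-fold) in naive CD8 T cells. The isotype library is the one with the low mitochondrial share, and library and tumour cannot be told apart.

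Anti-CTLA-4 was set against isotype in the libraries with B cells, which share the isotype library with the comparison above. Among classes with at least 10 measured members, germinal centre B cells showed the widest range. In them 3 of 17 measured members, all lower with anti-CTLA-4, passed 1.5-fold, against 8.54% of all genes. The median log2 ratio was -0.13 against 0.07. Idi1 stood at 44.3 against 77.2 CPM (0.574-fold, 0.440 to 0.7495), Fdps at 100 against 160 CPM (0.626-fold, 0.523 to 0.7497) and Fasn at 27.5 against 41.3 CPM (0.666-fold). Acly was at 0.742-fold, and Sc5d (1.29-fold), Insig1 (1.14-fold) and Msmo1 (1.09-fold) were highest. Median depth differed in the same cells, at 12984 against 17810 UMIs, and 10 of the 17 members reached 100 UMIs only with both libraries. The cell cycle list was level between the libraries, with none of 18 genes past 1.5-fold and a median log2 ratio of 0.03.

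Follicular B cells had none of 27 members past 1.5-fold between anti-CTLA-4 and isotype, against 1.74% of all genes. Srebf2 (1.07-fold), Scap (1.14-fold) and Elovl5 (1.02-fold) were highest, and Scd1 (0.926-fold), Fasn (0.866-fold) and Acly (0.962-fold) lowest. Activated B cells had none of 15, against 2.79%, from Hmgcs1 at 1.18-fold, Elovl5 at 1.05-fold and Scd1 at 0.993-fold down to Srebf2 at 0.934-fold, Insig1 at 0.844-fold and Fasn at 0.773-fold. In naive CD4 T cells 1 of 23 passed, against 1.66%: Hmgcs1 at 18.7 against 12.2 CPM (1.53-fold, 1.17 to 2.01), followed by Cyp51 (1.43-fold) and Insig1 (1.30-fold), with Acly, Fdps and Fasn lowest at 0.952-fold, 0.955-fold and 0.916-fold. The median log2 ratio there was 0.20 against 0.08 for all genes. Naive CD8 T cells had none of 24, against 1.59%, with Hmgcs1 again highest at 1.33-fold, then Scap and Insig1, both at 1.30-fold, and Elovl6 (0.768-fold), Srebf1 (0.882-fold) and Msmo1 (0.813-fold) lowest. Treg had none of 10, against 3.00%, from Scd2 at 1.17-fold and Acly at 1.13-fold to Srebf2 at 1.01-fold and Fasn at 0.814-fold, with Elovl5 at 1.03-fold. In naive CD4 T cells Cyp51 and Insig1 of the isotype library stood below both the anti-CTLA-4 and the saline control values, but level with depleted isotype, at 13.1 CPM in depleted isotype against 12.7 CPM in isotype for Cyp51 and at 21.4 against 20.6 CPM for Insig1.

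B cell depletion was set against intact nodes within each antibody. Under isotype, none of 28 measured members passed 1.5-fold in naive CD4 T cells, against 2.13% of all genes, with Scap (1.40-fold), Acat2 (1.38-fold) and Elovl5 (1.04-fold) highest and Idi1 (0.782-fold), Fdps (0.860-fold) and Acly (0.919-fold) lowest. None of 13 passed in Treg, against 2.88%, where Sc5d was at 1.37-fold, Scap at 1.33-fold, Elovl5 at 1.11-fold, Elovl6 at 0.847-fold and Fdft1 at 0.792-fold. In naive CD8 T cells 2 of 26 passed, both higher after depletion, against 1.74%: Lss at 4.59 against 2.84 CPM (1.62-fold, 1.04 to 2.59) and Acat2 at 7.48 against 4.95 CPM (1.51-fold, 1.08 to 2.15). Insig1 was at 1.40-fold, and Fdft1 (0.773-fold), Srebf1 (0.876-fold) and Msmo1 (0.828-fold) were lowest.

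Proliferating T cells differed most under isotype, with 5 of 11 measured members past 1.5-fold, against 11.6% of all genes. Fdps stood at 34.7 against 87.6 CPM (0.397-fold, 0.291 to 0.538), Cyp51 at 23.6 against 47.5 CPM (0.497-fold), Fasn at 29.2 against 50.9 CPM (0.573-fold) and Pmvk at 28.2 against 42.5 CPM (0.664-fold). Acaca was higher, at 35.6 against 21.7 CPM (1.64-fold), and Elovl5 and Scd2 were at 1.23-fold and 1.36-fold. Only 86 and 52 cells stand behind these values, and of the 11 members only 1 reached 100 UMIs in the intact library alone. In the intact library single cells held 25.7% of the Fdps, 24.6% of the Cyp51 and 26.2% of the Fasn UMIs. With each cell given the same weight, Cyp51 was at 0.844-fold and no longer past 1.5-fold, while Fdps was at 0.585-fold, Fasn at 0.560-fold and Acaca at 1.72-fold. The summed B cell markers stood at 30.1 CPM in depleted and 197 CPM in intact proliferating T cells; their part in the result was not tested.

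Under anti-CTLA-4, depletion left naive CD4 T cells with none of 28 members past 1.5-fold, against 1.43% of all genes, from Scd2 (1.30-fold), Acaca (1.26-fold) and Fasn (1.21-fold) to Idi1 (0.851-fold), Hmgcs1 (0.832-fold) and Insig1 (0.825-fold). Treg had none of 18, against 2.03%, from Fdft1 (1.34-fold), Scap (1.32-fold) and Srebf1 (1.29-fold) to Acly (0.963-fold), Elovl5 (0.9496-fold) and Elovl6 (0.797-fold). In naive CD8 T cells 1 of 29 passed, against 1.5%: Scd2 at 18.8 against 12.2 CPM (1.54-fold, 1.253 to 1.91), with Acaca at 1.24-fold and Fasn at 1.21-fold next and Hmgcs1 (0.823-fold), Elovl5 (0.933-fold) and Cyp51 (0.796-fold) lowest. Memory CD8 T cells had 2 of 10, against 2.05%: Acaca, the first committed step of fatty acid synthesis, stood at 27.4 against 13.2 CPM (2.08-fold, 1.39 to 3.18) and Insig1 at 20.3 against 12.8 CPM (1.59-fold, 1.04 to 2.49). Srebf1 was at 1.35-fold there, and Elovl5 (0.859-fold), Acly (0.940-fold) and Srebf2 (1.03-fold) were lowest.

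Anti-CTLA-4 was last set against isotype within the depleted nodes, libraries that also serve in the comparisons before. Naive CD4 T cells had 1 of 29 members past 1.5-fold, against 0.837% of all genes: Sqle at 6.41 against 4.21 CPM (1.52-fold, 1.11 to 2.10). Idi1 (1.35-fold) and Cyp51 (1.29-fold) came next, and Acat2 (0.736-fold), Scap (0.978-fold) and Elovl5 (1.01-fold) were lowest. Naive CD8 T cells had 1 of 29, against 0.709%, and it was again Sqle, at 3.76 against 2.40 CPM (1.56-fold, 1.06 to 2.33). Scd2 (1.37-fold) and Acaca (1.26-fold) were high there too, while Elovl5 (0.980-fold), Insig1 (0.897-fold) and Acly (0.973-fold) were lowest.

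In the other T classes of the depleted nodes, Treg had none of 21 members past 1.5-fold, against 1.62%, from Nsdhl (1.34-fold), Scd2 (1.24-fold) and Insig1 (1.18-fold) to Elovl5 (0.883-fold), Sc5d (0.839-fold) and Elovl6 (0.784-fold). Memory CD8 T cells had 2 of 10, against 1.55%: Scd2 at 17.9 against 9.20 CPM (1.94-fold, 1.247 to 3.10) and Insig1 at 20.3 against 13.0 CPM (1.56-fold, 1.06 to 2.33). Srebf1 was at 1.24-fold, Elovl5 at 1.04-fold, Acly at 1.01-fold and Srebf2 at 0.967-fold. Proliferating T cells had 1 of 12, against 3.36%: Acaca at 21.1 against 35.6 CPM (0.592-fold, 0.387 to 0.890). Stard4 (1.41-fold), Fdps (1.32-fold) and Fasn (1.21-fold) were highest, and Elovl5 (0.974-fold) and Srebf2 (0.909-fold) next lowest. The depleted isotype value of 35.6 CPM is the one that also entered the Acaca ratio after depletion under isotype, and with each cell given the same weight Acaca was at 0.767-fold here, no longer past 1.5-fold. Where fewer than 10 members were measured in a class, no count is given. In such classes Srebf2 was past 1.5-fold in effector or Tfh-like CD4 T cells, at 1.52-fold in glioma over saline nodes, 0.622-fold with anti-CTLA-4 over isotype and 0.559-fold after depletion under isotype, ratios that share the isotype library. With anti-CTLA-4 over isotype in nodes with B cells, Fdps was at 0.457-fold and Elovl5 at 1.60-fold in proliferating T cells, and Fdps at 1.67-fold and Scd2 at 1.62-fold in memory-like B cells. Scd2 in memory-like B cells was at 0.631-fold in glioma over saline nodes.

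**Figure D5:**
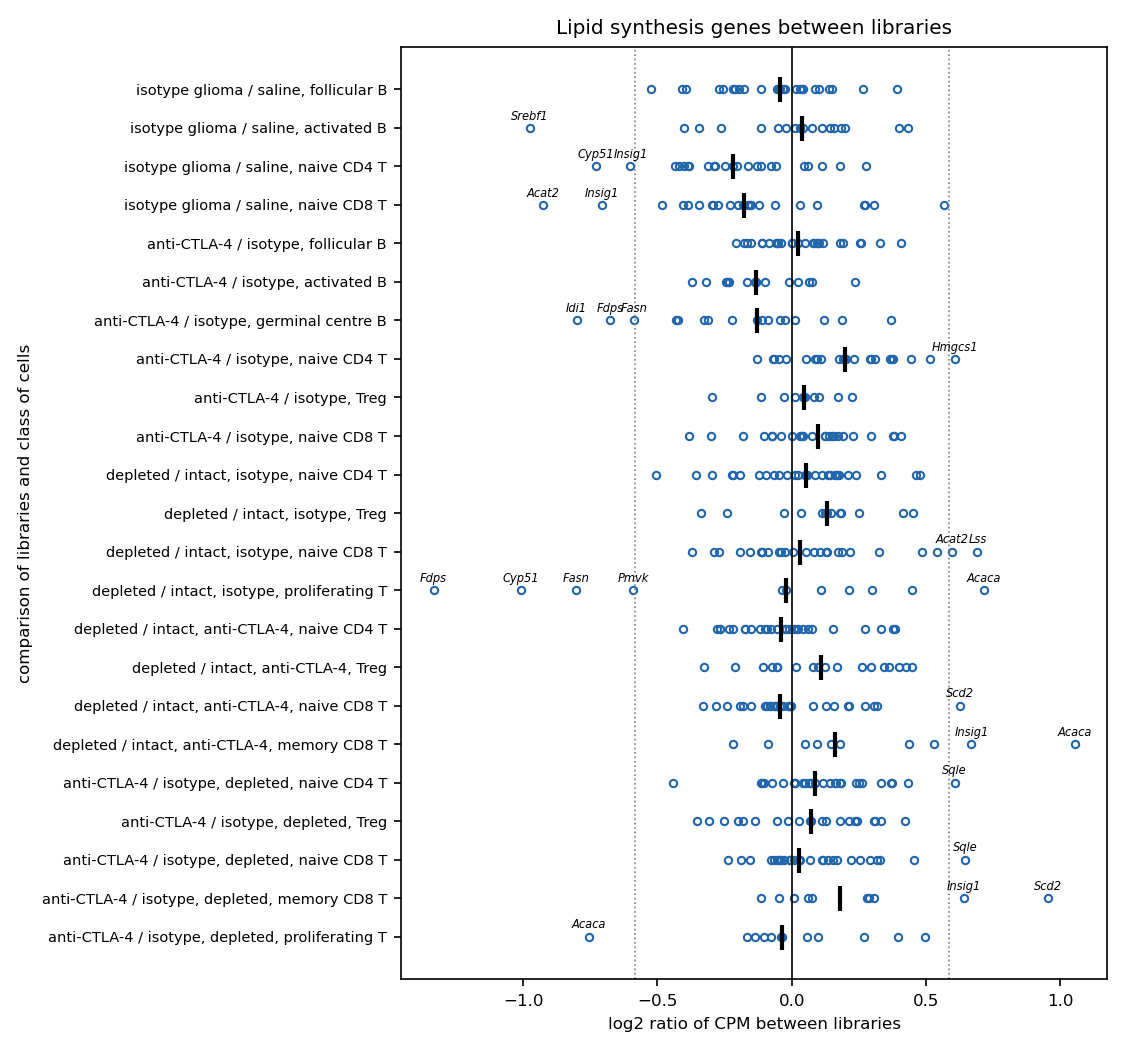
Log2 ratio of CPM between libraries for each measured gene (open circles), by comparison and class of cells; black bars are medians, dotted lines are 1.5-fold, and genes past it are named. All medians but 1, at -0.22, lie within 0.2 of 0, and the genes past 1.5-fold are few outside proliferating T and germinal centre B cells.

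In the classes with at least 10 measured members, 24 differences between libraries were past 1.5-fold. In 17 of the 24 the second library of the ratio held under 100 UMIs of the gene by itself. Some reached 100 only in the library where they were higher. In naive CD4 T cells these were Hmgcs1 with anti-CTLA-4 over isotype (155 against 88 UMIs) and Cyp51 in glioma over saline nodes (91 against 166). After depletion under isotype they were Acat2 in naive CD8 T (140 against 47) and Fdps in proliferating T cells (75 against 105). Acaca in memory CD8 T cells after depletion under anti-CTLA-4 (112 against 32) and Sqle in naive CD4 T cells of depleted nodes (102 against 70) were others. The 24 ratios were recomputed under 5 to 11 alternatives each, not counting other thresholds for UMIs or fold. Of them, 10 stayed past 1.5-fold under each of the 5 to 9 that gave them a value. The 10 were Cyp51 in naive CD4 T cells and Insig1 and Acat2 in naive CD8 T cells of glioma over saline nodes, Idi1 in germinal centre cells under anti-CTLA-4, Lss in naive CD8 T cells and Fdps, Fasn and Acaca in proliferating T cells after depletion under isotype, Acaca in memory CD8 T cells after depletion under anti-CTLA-4, and Scd2 in memory CD8 T cells with anti-CTLA-4 in depleted nodes. The other 14 fell short under at least 1 alternative. Fasn in germinal centre cells was at 0.8711 without doublet removal, and Srebf1 in activated B cells at 0.944 with the 31 genes kept for clustering. Insig1 in memory CD8 T cells was at 1.175 at the finer clustering after depletion and at 1.107 with the 31 genes kept for clustering under anti-CTLA-4 in depleted nodes. Sqle under anti-CTLA-4 in depleted nodes was at 1.397 in naive CD4 T cells with each cell given the same weight, and at 1.354 in naive CD8 T cells without the cells that held a UMI of a B cell marker. Pmvk in proliferating T cells was at 0.9645 with each cell given the same weight.

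Some levels that separated classes of cells were close between the libraries. Scd1 in follicular B cells stood between 256 and 308 CPM in the 3 libraries with B cells, and Elovl5 in Treg between 151 and 171 CPM in all 5.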

How the data were processed

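Each expression library was captured with 10x 5' chemistry, per the labels' protocols. The deposited values are raw UMI counts per gene and barcode, which the authors made with Cell Ranger. The file headers name version 7.0.1, and the submitters' processing notes also name bcl2fastq 2.20.0 and the mm10 build. How barcodes were called as cells is not stated there.

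From these counts, cells with at least 500 genes and at most 10% mitochondrial UMIs were kept, and in each library the highest Scrublet scores were removed as doublets, at 0.8% per 1000 barcodes. Cells of all libraries were clustered in scanpy 1.11.5 (Python 3.11.15) on 2000 variable genes, with the 31 genes and the companion lists left out, 30 components, 15 neighbours and Leiden resolution 1 (leidenalg 0.10.2), and clusters were named from marker lists. UMIs were summed per class and library and divided by the total. CPM carries an exact Poisson 95% interval and a ratio an exact conditional binomial one (scipy 1.17.1); both cover counting error only. With 1 library a group no test was possible. A gene was measured with at least 100 UMIs over both sides, in classes of at least 50 cells, and called past 1.5-fold. Genes named are all members past that fold and the 3 highest and 3 lowest by the interval bound nearest to 1. The ratio and its interval were tested on simulated Poisson counts with known folds. That test did not cover cell filters, doublets, clustering, class names or variation between cells or mice. Heavy chain classes came from 3 deposited receptor tables. The 31 genes, the lists and the markers were chosen with earlier results of these data known; the cut-offs used to name clusters were chosen once those clusters could be seen. Alternatives covered doublets, cell filters, clustering, scaling, cell weights, thresholds, cells of the other lineage, clusters of 1 library and single cells with most UMIs. Some genes of the companion and marker lists are not reported here.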

Additional observations from a re-analysis of the deposited data

How the results depend on the processing

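No paired analysis was possible because each group is 1 library. The activated over follicular B contrast depended most on the processing. Its count of 7 members higher became 0 without doublet removal, with at least 1000 genes and at most 5% mitochondrial UMIs (the stricter filter), with members kept for clustering, and without the Srm-led cluster. The count was 3 at a minimum of 300 UMIs and also past 2-fold, and the median log2 ratio was -0.06 with the stricter filter.

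Ratios that turned below 1 there are as follows. Without doublet removal, Fdps was at 0.4715 and Idi1 at 0.9891 in the anti-CTLA-4 library. In the isotype library Fdps was at 0.7931, Sqle at 0.7807, Hmgcs1 at 0.9377, Cyp51 at 0.8218 and Fasn at 0.9119, and in the saline control Sqle was at 0.759, Msmo1 at 0.6413 and Fasn at 0.8375. With the stricter filter, Fdps was at 0.6769 and Idi1 at 0.7206 in the anti-CTLA-4 library. In the isotype library Fdps was at 0.5834, Sqle at 0.7747, Hmgcs1 at 0.784, Cyp51 at 0.8207, Msmo1 at 0.624, Fasn at 0.7721 and Idi1 at 0.8415, and in the saline control Sqle was at 0.8216, Msmo1 at 0.7958 and Fasn at 0.8835. With members kept, Fdps was at 0.9836 with anti-CTLA-4 and 0.9927 with isotype, and Msmo1 was at 0.9318 and Fasn at 0.8827 in the saline control. Without the Srm-led cluster, Fdps was at 0.7251 with anti-CTLA-4 and 0.7626 with isotype, Msmo1 at 0.9193 in the saline control, and Idi1 at 0.8061 with anti-CTLA-4 and 0.8674 in the saline control. The cause was not tested beyond the cluster left out.

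The germinal centre count of 13 became 5 at 300 UMIs, where fewer genes are measured, and the median of IgG over IgM or IgD cells was 1.07 without plasma cells. Of the recomputed values, 331 of 333 medians, 22 of 29 counts and 3360 of 3533 gene ratios stayed within the limits set for a change, and 31 gene ratios, those above, turned direction. Leaving out the isotype library, adding classes of 20 to 49 cells and leaving out either activated cluster were chosen after seeing the data. Depth limits Sqle, Fads2 and other thinly counted genes outside large classes.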
